A study of Mus musculus with 10 samples.

Results

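Atf4 and 9 genes known as its targets were followed in B16-F10 mouse melanoma cells given interferon gamma (IFN-γ). The genes were Ddit3, Atf3, Trib3, Chac1, Sesn2, Ddit4, Asns, Psat1 and Vldlr. The set was selected on measured values: Ddit3, Chac1 and Trib3 respond to IFN-γ differently in 2 lines. The difference between the responses of the lines is therefore given below as a description of these genes and not as a test. The 10 symbols matched 11 of the 77175 entries of the count table. A second entry named Ddit3 (ENSMUSG00000116429) had no counts in any library, which left 10 entries of the 15526 that had enough counts to be tested.

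The libraries came from B16-F10-OVA, which carries the lentiviral construct pLV[Exp]-Neo-EF1A>{ovalbumin} and so makes ovalbumin, a model antigen, under the EF1A promoter, and from its parent B16-F10. The lines are called OVA and WT here. The labels do not say whether the OVA line is 1 clone. The groups were OVA with IFN-γ for 24 h at 50 ng/ml (3 libraries), OVA untreated (2), WT with the same IFN-γ treatment (3) and WT untreated (2). Total counts ran from 17728722 to 19642533 per library. All 10 melanocyte markers were expressed, with summed levels of 24284 to 25607 CPM (counts per 1000000 reads of the library, scaled with TMM factors). Against these, the summed markers of T cells, leukocytes, fibroblasts and epithelial cells reached at most 4.13, 5.04, 20.4 and 1.57 CPM, and Cd3e, Ptprc, Thy1 and Epcam were at 0. Mitochondrially encoded genes held 2.70% to 2.89% of the counts of treated OVA and 3.29% and 3.38% of untreated OVA, against 2.88% to 2.94% in treated WT and 2.98% and 3.03% in untreated WT, and their part in the results below was not tested.

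The integrated stress response starts when one of a small group of kinases phosphorylates the translation factor eIF2α. Most protein synthesis then slows, while the mRNA of the transcription factor ATF4 is translated more, because of upstream reading frames in its 5′ end. ATF4 thus acts largely through its protein, and the level of its mRNA does not measure its activity. With partners of the C/EBP family it binds composite C/EBP-ATF elements and raises genes of amino acid supply, of redox balance, of mTORC1 inhibition and, through CHOP (the product of Ddit3), of cell death. In melanoma cells this response is known from nutrient shortage and from changes of cell state.

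The promoter windows of Ddit3, Chac1, Trib3, Atf3 and Asns are shown because a C/EBP-ATF element is the common feature of known ATF4 targets. The windows are from RefSeq on GRCm38.p6, a build other than the GRCm39 build named for the counts, and run from 250 bases before to 50 after the annotated start. Capitals mark TGATGNAA, searched as the core of the element on both strands, so that a match on the other strand appears as its reverse complement.
Ddit3: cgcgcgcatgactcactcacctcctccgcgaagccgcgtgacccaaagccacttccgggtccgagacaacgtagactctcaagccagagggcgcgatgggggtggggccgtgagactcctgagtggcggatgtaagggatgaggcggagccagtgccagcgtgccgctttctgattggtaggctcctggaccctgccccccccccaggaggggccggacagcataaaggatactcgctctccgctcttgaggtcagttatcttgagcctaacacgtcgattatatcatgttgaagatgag
Chac1: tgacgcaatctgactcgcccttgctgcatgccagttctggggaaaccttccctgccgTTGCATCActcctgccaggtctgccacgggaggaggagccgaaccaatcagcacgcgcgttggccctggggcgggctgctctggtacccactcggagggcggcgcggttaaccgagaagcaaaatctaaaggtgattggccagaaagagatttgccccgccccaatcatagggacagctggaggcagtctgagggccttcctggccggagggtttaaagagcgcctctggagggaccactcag
Trib3: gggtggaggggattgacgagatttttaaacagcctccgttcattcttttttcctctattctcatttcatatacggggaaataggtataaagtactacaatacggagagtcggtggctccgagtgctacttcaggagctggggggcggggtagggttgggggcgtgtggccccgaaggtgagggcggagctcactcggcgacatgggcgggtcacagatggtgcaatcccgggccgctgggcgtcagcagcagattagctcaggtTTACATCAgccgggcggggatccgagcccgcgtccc
Atf3: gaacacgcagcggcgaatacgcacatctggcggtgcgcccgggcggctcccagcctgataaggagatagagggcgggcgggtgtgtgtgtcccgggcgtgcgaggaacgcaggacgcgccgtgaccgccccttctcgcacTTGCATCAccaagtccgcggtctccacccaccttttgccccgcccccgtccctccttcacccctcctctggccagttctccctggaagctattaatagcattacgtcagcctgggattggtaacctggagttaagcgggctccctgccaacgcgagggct
Asns: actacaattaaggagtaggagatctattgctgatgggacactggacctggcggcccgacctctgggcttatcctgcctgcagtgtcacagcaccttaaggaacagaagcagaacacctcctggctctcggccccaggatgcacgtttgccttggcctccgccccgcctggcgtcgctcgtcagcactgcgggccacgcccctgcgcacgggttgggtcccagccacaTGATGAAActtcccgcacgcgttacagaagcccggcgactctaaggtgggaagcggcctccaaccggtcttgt
The Ddit3 window is at chr10:127290543-127290842 on the plus strand and has no match. Sequence outside the windows was not searched, so this does not say that the gene lacks the element. The window of Chac1 is at chr2:119350992-119351291 (plus strand), with its match 193 to 186 bases before the start. Trib3 (chr2:152344011-152344310, minus strand) has its match 15 to 22 bases after the start. In Atf3 (chr1:191183284-191183583, minus strand) the match lies 110 to 103 bases before the start, and in Asns (chr6:7693160-7693459, minus strand) 23 to 16 bases before it. All 10 genes had a window, 12 windows in all since Psat1 and Vldlr each have 2, and 5 genes held the core, the fifth being Vldlr. The windows of Ddit3, Atf4, Sesn2, Ddit4 and Psat1 did not hold it. Of all 32851 windows of this length in the table, 3.97% held it.

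Other motifs were rare in these windows. The cyclic AMP element TGACGTCA, the interferon gamma activated site TTCNNNGAA and the ER stress element (ERSE) had no match in any of the 12 windows, against 1.79%, 8.30% and 0.119% of all windows. The interferon-stimulated response element (ISRE) matched once, in a Vldlr window, against 3.44% of all windows. These motifs were searched on both strands, and no match of one overlapped a match of another. A match describes the letters and is not evidence of binding.

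**Figure D1:**
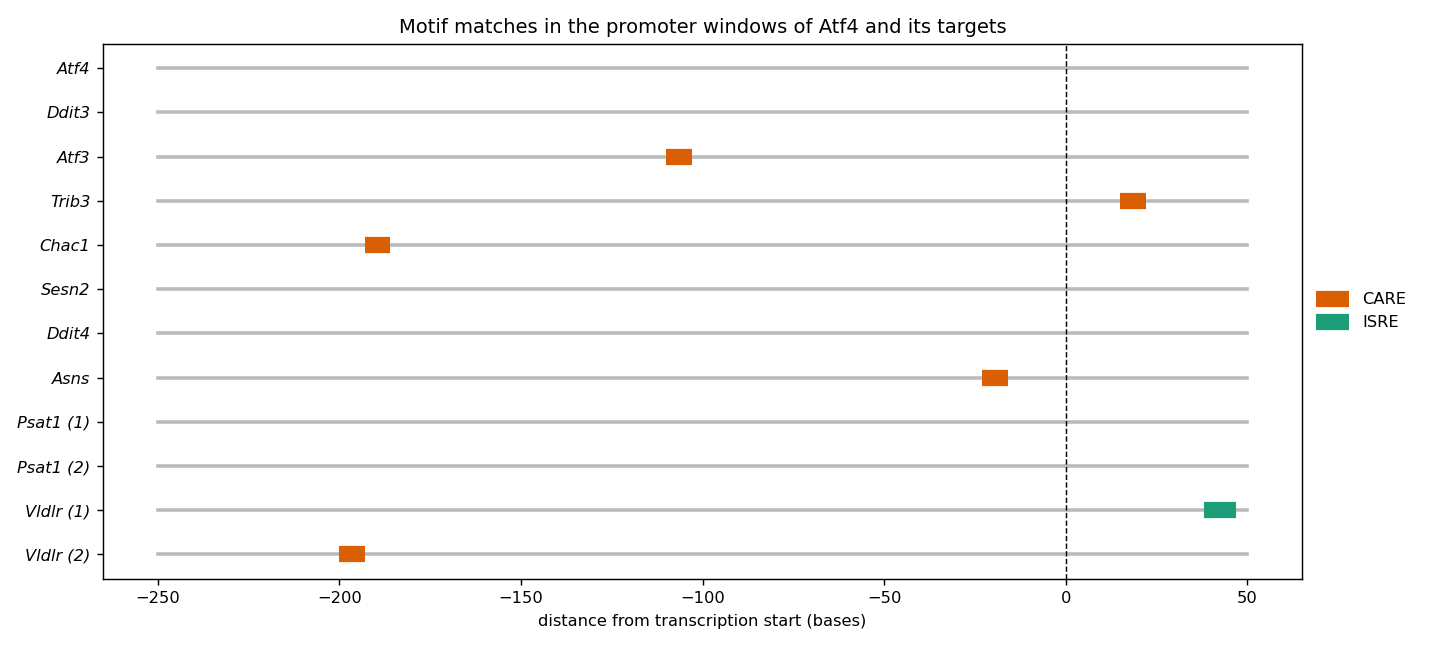
Matches of the C/EBP-ATF core (CARE) and of the interferon-stimulated element (ISRE) in 12 promoter windows, by distance in bases from the annotated transcription start (dashed line); grey lines are the windows, and numbers in brackets tell apart windows of 1 gene. The core lies at different distances in Atf3, Trib3, Chac1, Asns and Vldlr. Ddit3, Atf4, Sesn2, Ddit4 and Psat1 have no match of the core within their windows.

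Atf4 mRNA was slightly lower after IFN-γ in both lines. Its level was 329.8, 342 and 347 CPM in treated OVA, against 366 and 376 CPM in untreated OVA. WT cells had 329, 336 and 361 CPM with IFN-γ, against 382 and 379 CPM without. Treated and untreated libraries did not overlap in either line, as in 65.6% of all genes tested in OVA and 62% in WT. The log2 difference was −0.13 in OVA (SE 0.037, edgeR quasi-likelihood test, adjusted p = 0.00907) and −0.15 in WT (SE 0.037, adjusted p = 0.00273). In such bulk libraries a change in fewer cells and a smaller change in every cell cannot be told apart, here and below. The OVA call was lost without OVA untreated replicate 2 (log2 difference −0.10, adjusted p = 0.105). Between the lines Atf4 differed by −0.04 untreated (95% interval −0.12 to 0.05) and by −0.01 under IFN-γ (−0.08 to 0.06), and neither was called (adjusted p = 0.680 and 0.852).

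Ddit3, Trib3 and Chac1 had 3 different patterns over the groups. Ddit3, which encodes the death-promoting factor CHOP, was at 105, 102 and 109 CPM in treated OVA and at 61.3 and 59.2 CPM in untreated OVA. In WT it was at 85.2, 88.2 and 93.1 CPM with IFN-γ and at 75.6 and 75.2 CPM without. OVA cells thus had the highest Ddit3 levels of the 4 groups after treatment and the lowest before it, and no 2 groups overlapped. Libraries of the lines did not overlap for 31.1% of all genes tested under IFN-γ and for 49.7% untreated. The log2 response was 0.81 in OVA (SE 0.046, 1.75-fold) and 0.24 in WT (SE 0.045, 1.18-fold), a difference of 0.57 (SE 0.064). OVA minus WT was 0.25 under IFN-γ (SE 0.038) and −0.32 untreated (SE 0.051).

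Trib3 encodes a pseudokinase that binds ATF4 and CHOP and damps their activity. Its levels were 78.3, 72.5 and 75.4 CPM in treated OVA, against 48.1 and 49.3 CPM in untreated OVA. In WT they were 78.7, 75.0 and 76.5 CPM with IFN-γ and 67.1 and 61.7 CPM without. The treated libraries of the lines overlapped, and the untreated OVA libraries lay below the untreated WT ones. Untreated libraries of the lines did not overlap for 49.7% of all genes tested. The log2 response was 0.63 in OVA (SE 0.050, 1.55-fold) and 0.25 in WT (SE 0.048, 1.19-fold), a difference of 0.38 (SE 0.069). OVA minus WT was −0.02 under IFN-γ (SE 0.041) and −0.40 untreated (SE 0.055).

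Chac1, whose product degrades glutathione, was level in OVA and lower after treatment in WT. It was at 49.7, 50.2 and 50.6 CPM in treated OVA and at 49.0 and 49.7 CPM in untreated OVA. In WT it was at 41.7, 39.1 and 38.9 CPM with IFN-γ and at 54.1 and 49.6 CPM without. The treated WT libraries were below all the other libraries, and the other 3 groups lay close together. The log2 response was 0.02 in OVA (SE 0.050) and −0.38 in WT (SE 0.050, 0.770-fold), a difference of 0.40 (SE 0.071). Without WT untreated replicate 1 the WT value was −0.31, and without WT untreated replicate 2 it was −0.44.

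**Figure D2:**
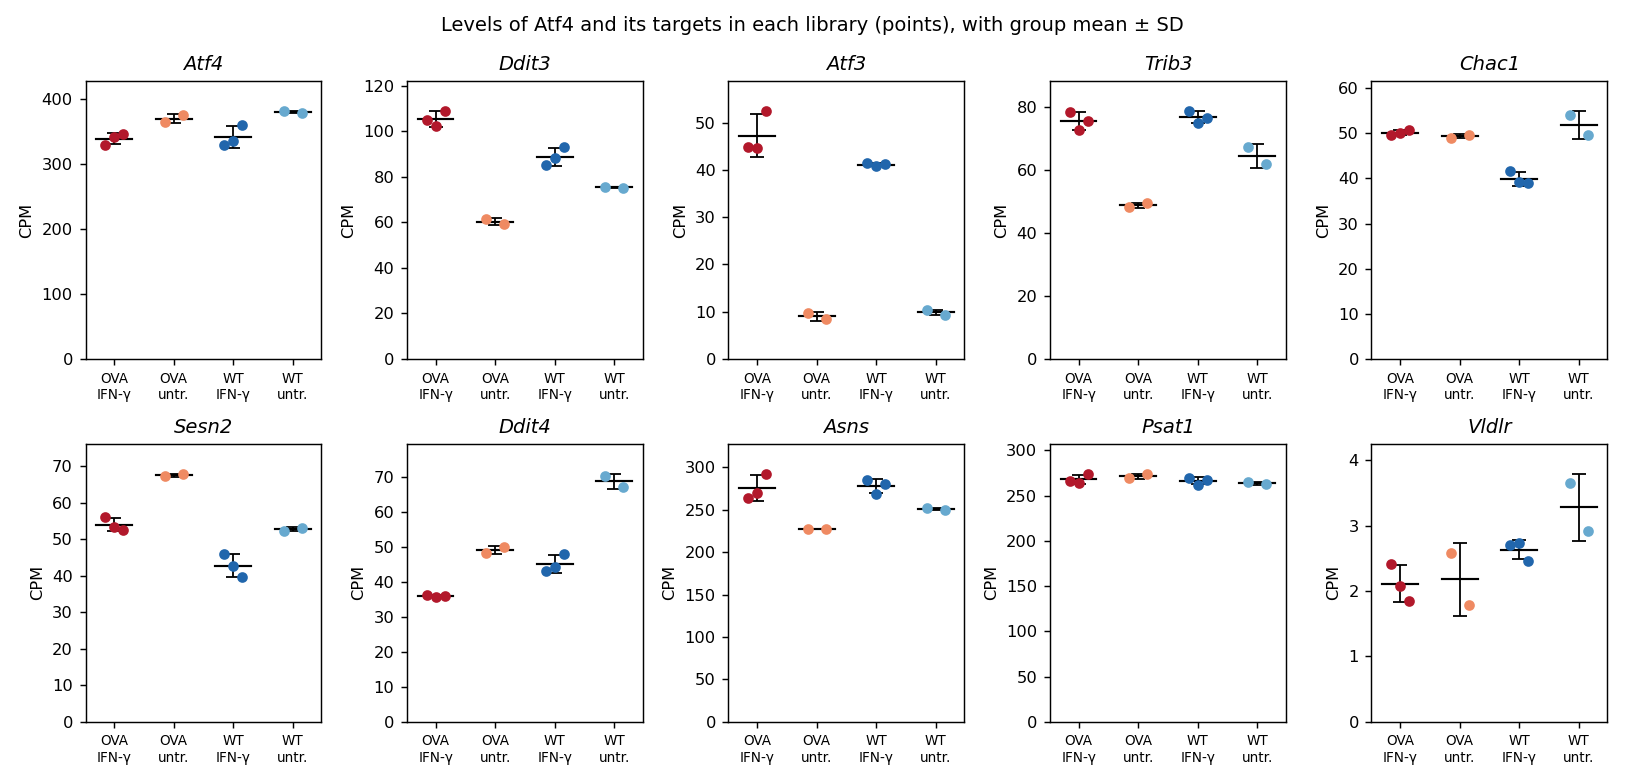
Levels of the 10 genes in CPM on linear axes from 0, with each point 1 library, bars at the group mean and whiskers of ± SD (n = 3 treated and n = 2 untreated in each line). Ddit3 is highest in treated OVA and lowest in untreated OVA, Trib3 is lowest in untreated OVA, Chac1 is lowest in treated WT, and Atf3 is high in both treated groups.

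In a linear model with these group sizes, the mean of the responses of the lines is uncorrelated with the difference between them. The mean was therefore tested for all 10 genes. Its spread is estimated from the same 10 libraries on which Ddit3, Trib3 and Chac1 were chosen. For these genes the choice may still affect the p-values. By the test of the mean, 4 genes rose and 4 fell. Over all genes tested 31.2% rose and 27.1% fell, 58.2% in all, so that most genes tested also passed. Atf3 rose by 2.22 (SE 0.063, adjusted p = 5.56e-15), Ddit3 by 0.52 (SE 0.032, adjusted p = 2.82e-10), Trib3 by 0.44 (SE 0.034, adjusted p = 7.28e-09) and Asns by 0.21 (SE 0.028, adjusted p = 5.48e-06). Ddit4 fell by 0.53 on the log2 scale (SE 0.036), Sesn2 fell by 0.31 (SE 0.038), Chac1 fell by 0.18 (SE 0.035, adjusted p = 3.77e-04) and Atf4 fell by 0.14 (SE 0.026). For Chac1 this mean covers 2 unlike values, near 0 in OVA and negative in WT. Psat1 and Vldlr were not called. The 8 calls held in every fit that left out 1 library.

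For the 7 genes other than Ddit3, Trib3 and Chac1, the response was tested in each line. In OVA, 2 rose and 3 fell, against 25.9% and 22.9% of all genes tested, 48.8% in all. In WT, 2 rose and 3 fell as well, against 24.5% and 19.7%, or 44.2% in all. The genes that rose were Atf3 and Asns in each line, and those that fell were Atf4, Sesn2 and Ddit4. Genes of 1 pathway thus moved in opposite directions, and 5 called of 7 is not far from the share of all genes called.

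Atf3, a stress-induced bZIP factor that mostly represses transcription, changed most among the 10 genes in either line. Its level was 44.7, 44.5 and 52.5 CPM in treated OVA, against 9.70 and 8.38 CPM in untreated OVA. Treated WT had 41.4, 40.8 and 41.2 CPM, against 10.3 and 9.41 CPM in untreated WT. All treated libraries were far above all untreated ones. Within a line, treated and untreated libraries did not overlap for 65.6% of all genes tested in OVA and 62% in WT. The log2 response was 2.39 in OVA (SE 0.090, 5.23-fold, adjusted p = 4.95e-13) and 2.06 in WT (SE 0.090, 4.17-fold, adjusted p = 4.13e-12), a difference of 0.32 (SE 0.14).

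Asns, the enzyme that makes asparagine from aspartate, rose a little. Its level was 265, 270.2 and 293 CPM in treated OVA, against 227 and 228 CPM in untreated OVA. In WT it was 285, 268 and 280.5 CPM with IFN-γ, against 252 and 249.95 CPM without. The treated groups overlapped, and the untreated OVA libraries were the lowest. Untreated libraries of the lines did not overlap for 49.7% of all genes tested. The log2 response was 0.28 in OVA (SE 0.040, adjusted p = 2.09e-05) and 0.15 in WT (SE 0.040, adjusted p = 0.00621), a difference of 0.13 (SE 0.056). Leaving out WT untreated replicate 2 ended the WT call (0.14, adjusted p = 0.0509). Ddit3, Trib3, Asns and Atf3 all had a lower mean in untreated OVA than in untreated WT, and a larger log2 response in OVA. Both of these values rest on the same 2 untreated OVA libraries. For Atf3 the untreated libraries of the lines overlapped, and the untreated line difference was called for neither Atf3 nor Asns.

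The mTORC1 brakes Sesn2 and Ddit4 both fell with IFN-γ and stood in opposite order between the lines. Sesn2, which senses leucine and holds back mTORC1, was at 56.0, 53.4 and 52.6 CPM in treated OVA and at 67.3 and 67.9 CPM in untreated OVA. In WT it was at 46.0, 42.7 and 39.7 CPM with IFN-γ and at 52.3 and 53.2 CPM without. At each condition every OVA library lay above every WT library. Libraries of the lines did not overlap for 31.1% of all genes tested under IFN-γ and for 49.7% untreated, so such a separation is common. The response was −0.32 in OVA (SE 0.052, adjusted p = 6.51e-05) and −0.30 in WT (SE 0.055, adjusted p = 2.62e-04), a difference of −0.02 (SE 0.076).

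Ddit4, whose product REDD1 inhibits mTORC1 through the TSC complex, was at 36.2, 35.7 and 35.9 CPM in treated OVA and at 48.3 and 49.9 CPM in untreated OVA. In WT it was at 43.0, 44.1 and 47.8 CPM with IFN-γ and at 70.2 and 67.1 CPM without. Here every OVA library lay below every WT library of the same condition, beside 31.1% of all genes not overlapping under IFN-γ and 49.7% untreated. The response was −0.45 in OVA (SE 0.053, adjusted p = 2.04e-06) and −0.61 in WT (SE 0.049, adjusted p = 1.83e-08), a difference of 0.16 (SE 0.072).

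Psat1 and Vldlr showed no called response. Psat1, an enzyme of serine synthesis, lay between 262 and 274 CPM in all 10 libraries. Its log2 response was −0.02 in OVA (95% interval −0.08 to 0.04, adjusted p = 0.637) and 0.01 in WT (−0.05 to 0.08, adjusted p = 0.754). Vldlr, a receptor for lipoproteins, was near the low end of what could be tested, with 33 to 66 counts and 1.78 to 3.64 CPM per library. Its response was −0.05 in OVA (95% interval −0.52 to 0.42) and −0.32 in WT (−0.74 to 0.11), and these intervals allow changes as large as those of Ddit4. The difference of its responses, 0.27 (SE 0.30), was 0.56 without OVA untreated replicate 1 and 0.03 without OVA untreated replicate 2.

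**Figure D3:**
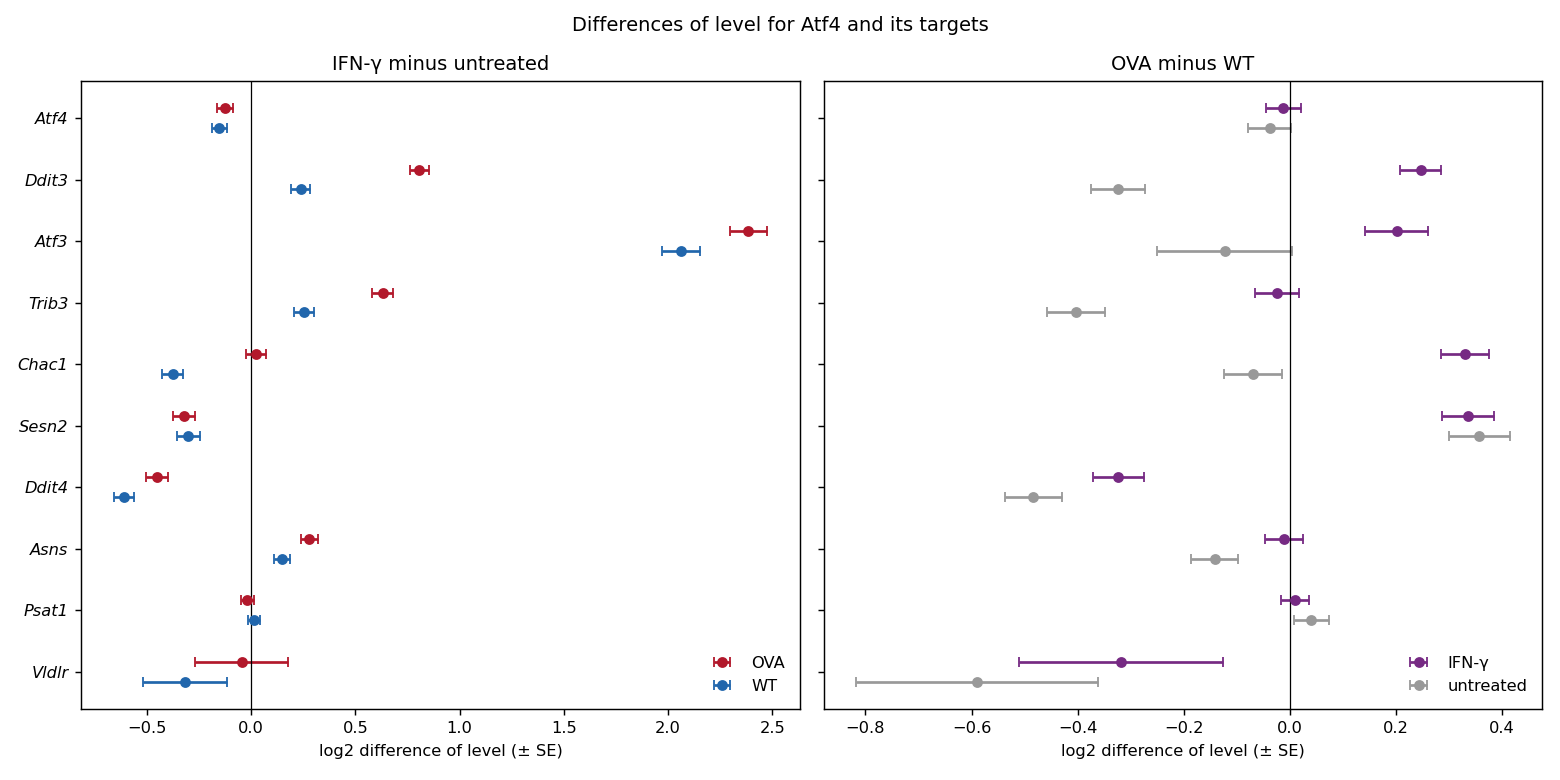
Log2 differences of level for the 10 genes, with whiskers of ± SE from the edgeR fit: IFN-γ minus untreated in OVA and WT (left), and OVA minus WT under IFN-γ and untreated (right). Ddit3, Trib3 and Chac1 have separate values for the lines on the left. On the right Sesn2 is positive and Ddit4 negative in each condition, while Ddit3, Chac1 and Atf3 change sign.

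Line differences were tested in the same 7 genes. Under IFN-γ, 2 were higher and 1 lower in OVA, against 6.36% and 7.99% of all genes tested, 14.4% in all. Untreated, 1 was higher and 1 lower, against 2.98% and 2.55%, or 5.53% in all. Sesn2 was higher in OVA by 0.34 under IFN-γ (SE 0.050, adjusted p = 2.21e-04) and by 0.36 untreated (SE 0.058, adjusted p = 0.00120). Ddit4 was at −0.32 under IFN-γ (SE 0.048, adjusted p = 2.40e-04) and at −0.48 untreated (SE 0.054, adjusted p = 3.08e-05). The third call was Atf3 under IFN-γ, at 0.20 (SE 0.060, adjusted p = 0.0323). That call was lost with DESeq2 (0.0938), without WT IFN-γ replicate 1 (0.0656), without WT IFN-γ replicate 2 (0.0968) and without OVA IFN-γ replicate 3 (log2 difference 0.12, adjusted p = 0.170). Asns was at −0.14 untreated and missed the threshold (SE 0.044, adjusted p = 0.0743). It passed with no filter (0.0292), a stricter filter (0.0349), only the untreated groups in the fit (0.00620) or without OVA IFN-γ replicate 3 (0.0238).

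A line difference over both conditions, with the treated and untreated values weighted 0.6 and 0.4, was tested for all 10 genes. These weights make it uncorrelated with the difference of responses in a linear model. The limit given above for Ddit3, Trib3 and Chac1 applies here too. Of the 10 genes, 2 were higher and 2 lower in OVA, against 9.53% and 9.69% of all genes tested, 19.2% in all. Sesn2 was higher by 0.34 (SE 0.038, adjusted p = 6.88e-06) and Chac1 by 0.17 (SE 0.035, adjusted p = 0.00264). Ddit4 was at −0.39 (SE 0.036, adjusted p = 1.13e-06) and Trib3 at −0.18 (SE 0.033, adjusted p = 0.00139). The Chac1 value covers unlike conditions. Under IFN-γ its mean was 50.1 CPM in OVA against 39.9 CPM in WT, but untreated it was 49.4 CPM against 51.8 CPM. For Trib3 the treated libraries of the lines overlapped, and only the untreated ones lay apart. Ddit3 was at 0.02 (SE 0.031, adjusted p = 0.730), since its untreated and treated differences have opposite signs. Vldlr, at −0.43 (SE 0.15, adjusted p = 0.0526), passed with a stricter filter (0.0455), without OVA untreated replicate 1 (0.0323) and without OVA IFN-γ replicate 1 (0.0447). Asns, at −0.06 (SE 0.028, adjusted p = 0.124), passed without OVA IFN-γ replicate 3 (−0.09, adjusted p = 0.0175).

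Other effector genes of the stress response also stood both above and below WT. Of 14 tested secreted, autophagy and death genes, 7 were higher and 2 lower in OVA under IFN-γ, and 6 were higher and 2 lower untreated, against 14.4% and 5.53% of all genes tested called. Among the 7 lists of stress genes described below, this one had the largest called share, 64.3% under IFN-γ and 57.1% untreated. Over the 107 tested genes of all these lists, the shares were 33.6% and 23.4%. The lower pair of this list was the same in each condition. Ero1a, a thiol oxidase of the endoplasmic reticulum, was at −0.80 under IFN-γ (SE 0.028) and −0.74 untreated (SE 0.034), and the growth factor gene Vegfa was at −0.43 (SE 0.037) and −0.39 (SE 0.044). Among the higher genes, the autophagy receptor gene Sqstm1 was at 0.28 under IFN-γ (SE 0.024) and 0.24 untreated (SE 0.029), and Hmox1, which degrades haem, was at 0.22 (SE 0.047) and 0.35 (SE 0.061). Bbc3, which encodes the death protein PUMA, was higher under IFN-γ (0.61, SE 0.096, adjusted p = 4.22e-04) and was at 0.32 untreated (SE 0.12, adjusted p = 0.172). Ddit4l, unlike Ddit4, was higher in untreated OVA (1.38, SE 0.25, adjusted p = 0.00337). In the fits that left out 1 library its value was 1.05 to 1.82 untreated and 1.23 to 1.57 under IFN-γ. The untreated call of Ddit4l did not hold in every such fit.

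The kinases that start the response moved in unlike ways. Eif2ak2, the interferon-inducible kinase PKR that senses double-stranded RNA, averaged 244 ± 3.83 CPM in treated OVA and 44.9 ± 3.83 CPM in untreated OVA, and 248 ± 6.17 CPM in treated WT and 39.8 ± 0.250 CPM in untreated WT (SD, n = 3 treated and 2 untreated). It rose by 2.44 in OVA (SE 0.045) and by 2.64 in WT (SE 0.046). Eif2ak3, the kinase PERK of the endoplasmic reticulum, was at −0.56 in OVA (SE 0.045, adjusted p = 1.94e-08) and −0.54 in WT (SE 0.045, adjusted p = 2.50e-08). The amino acid sensor Eif2ak4 (GCN2) was at −0.17 in OVA (SE 0.049, adjusted p = 0.00864, or 0.0506 without OVA untreated replicate 2) and at −0.05 in WT (adjusted p = 0.425). The haem sensor Eif2ak1 (HRI) was at 0.09 in OVA (adjusted p = 0.137). It was at 0.14 in WT (SE 0.047, adjusted p = 0.0227), a call lost with DESeq2 (0.0905), without TMM factors (0.0718) and without WT untreated replicate 2 (0.07, adjusted p = 0.372), and likewise without the first (0.0985) or the second (0.0525) treated WT library. Ppp1r15a, the phosphatase subunit GADD34 that resets eIF2α, rose in OVA by 0.27 (SE 0.067, adjusted p = 0.00280) and was at 0.16 in WT (adjusted p = 0.0683, or 0.0183 without WT IFN-γ replicate 1). In the list of 21 kinases, eIF2 and eIF2B subunits and phosphatase genes, 10 rose and 4 fell in OVA, where 25.9% of all genes tested rose and 22.9% fell. In WT 9 rose and 3 fell, where 24.5% of all genes rose and 19.7% fell.

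Most of the bZIP and related factors that act with ATF4 rose. Of 9 tested genes of 10 listed, 7 rose and none fell in OVA (median 0.36), against 25.9% of all genes that rose, and 6 rose and none fell in WT (median 0.44), against 24.5%. The median of all genes tested was 0.00 in OVA and 0.01 in WT. The stress-induced chromatin protein gene Nupr1 rose by 1.71 in OVA (SE 0.11) and 1.10 in WT (SE 0.11). Atf5, a close relative of Atf4, rose by 0.91 (SE 0.043) and 0.76 (SE 0.042). Cebpb, a C/EBP partner, rose by 0.84 (SE 0.15, adjusted p = 1.36e-04) and 0.59 (SE 0.14, adjusted p = 0.00298). Nupr1 averaged 20.1 ± 1.06 CPM in treated OVA and 6.15 ± 0.0991 CPM in untreated OVA, against 19.1 ± 1.04 CPM in treated WT and 8.89 ± 1.95 CPM in untreated WT.

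Amino acid genes moved both ways. Of 14 genes of serine, one-carbon and other amino acid synthesis, which do not include Asns and Psat1, 6 rose and 4 fell in OVA, and 3 rose and 5 fell in WT, beside 48.8% of all genes called in OVA and 44.2% in WT. Aldh1l2, a mitochondrial folate enzyme, rose by 0.74 in OVA (SE 0.052) and 0.54 in WT (SE 0.049), and Psph, the last enzyme of serine synthesis, rose by 0.60 (SE 0.054) and 0.41 (SE 0.054). The cytosolic folate enzyme gene Shmt1 was at −0.55 (SE 0.057) and −0.73 (SE 0.057). Of 11 amino acid transporters, 4 rose and 4 fell in OVA, and 3 rose and 5 fell in WT, beside the same shares of all genes. The glycine transporter gene Slc6a9 rose by 1.02 (SE 0.066) and 0.77 (SE 0.064), while the leucine transporter gene Slc7a5 was at −0.39 (SE 0.033) and −0.45 (SE 0.033) and the arginine transporter gene Slc7a1 at −0.43 (SE 0.036) and −0.37 (SE 0.036).

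Of the 20 cytosolic aminoacyl-tRNA synthetases, 17 rose and none fell in OVA (median 0.28), against 25.9% of all genes that rose. In WT 16 rose and 1 fell (median 0.26), against 24.5% and 19.7% of all genes. Wars1, known to be induced by IFN-γ, rose 3.04-fold in OVA and 3.23-fold in WT (log2 response 1.69, SE 0.033), and the lysine enzyme gene Kars1 rose by 0.86 in each line (SE 0.033). The gene that fell in WT was Mars1 (−0.10, SE 0.037, adjusted p = 0.0383), named because its exons overlap Ddit3 on the opposite strand in GENCODE M21. Its means were 106 ± 0.602 CPM in treated OVA and 106 ± 3.71 CPM in untreated OVA, against 102 ± 2.83 CPM in treated WT and 109 ± 0.928 CPM in untreated WT. The libraries are not labelled as stranded and the counting of shared reads is not given, so reads of the overlap could be split between Ddit3 and Mars1. A noncoding gene, Gm4189, also overlaps Ddit3, and its part was not tested.

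Most listed genes of the other arms of the unfolded protein response, driven by XBP1 and ATF6, fell. Of 18 genes, 14 fell and 2 rose in OVA (median −0.44), against 22.9% and 25.9% of all genes tested. In WT 14 fell and none rose (median −0.32), against 19.7% and 24.5% of all genes. The 2 that rose in OVA were Ern1 and Atf6. Over the fits that left out 1 library they were at 0.26 to 0.36 and at 0.13 to 0.16 in OVA. In WT, where neither was called, they were at 0.08 to 0.20 and at 0.06 to 0.12. Herpud1, which serves the disposal of misfolded proteins, was at −0.86 in OVA (SE 0.035) and −0.86 in WT (SE 0.036). The chaperone genes Hyou1 and Hspa5 were at −0.63 (SE 0.026) and −0.54 (SE 0.027) in OVA and at −0.55 (SE 0.026) and −0.41 (SE 0.027) in WT. Xbp1 itself was at −0.21 in OVA (SE 0.044, adjusted p = 7.72e-04) and −0.14 in WT (SE 0.044, adjusted p = 0.0174). Leaving out either untreated WT library (adjusted p = 0.116 and 0.0695) or the second treated one (0.0706) ended the WT call of Xbp1. Of the 14 tested secreted, autophagy and death genes of 19 listed, 9 rose and 4 fell with IFN-γ in OVA, and 6 rose and 4 fell in WT, beside 48.8% of all genes called in OVA and 44.2% in WT. Among them the autophagy receptor gene Nbr1 rose by 0.45 in OVA (SE 0.032) and 0.39 in WT (SE 0.032). Tnfrsf10b, of the same list, was at −0.48 in OVA (SE 0.078, adjusted p = 7.49e-05). In WT it was at −0.42 to −0.24 over the fits that left out 1 library. The stress cytokine genes Gdf15 and Fgf21 had too few counts to be tested.

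**Figure D4:**
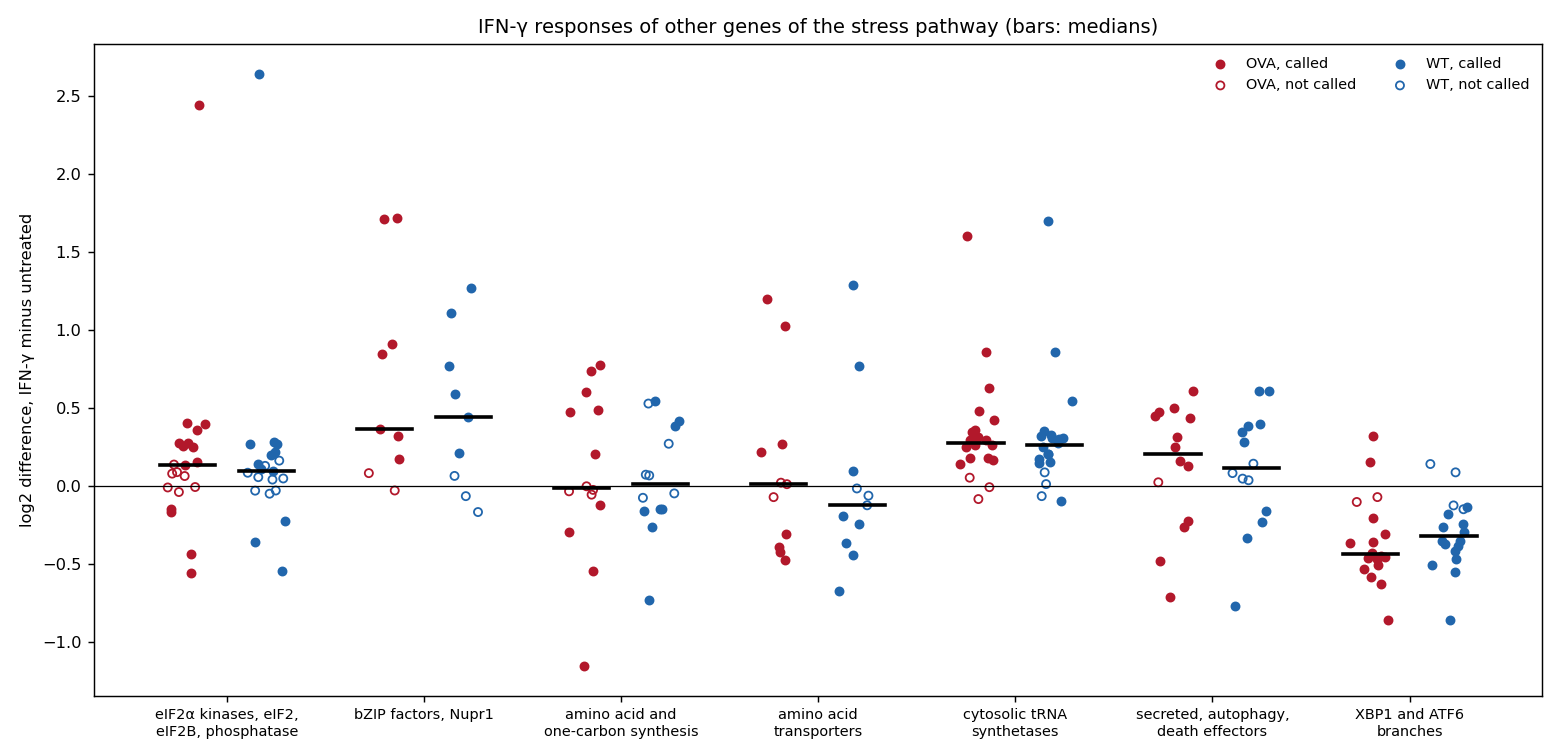
Log2 responses to IFN-γ of 107 tested genes in 7 lists of the stress pathway that do not hold the 10 genes, in OVA (red, left of each pair) and WT (blue); filled points passed an adjusted p of 0.05, open points did not, and bars are list medians. The synthetases and the bZIP list lie mostly above 0 and the XBP1 and ATF6 list below it in both lines, and the highest point is Eif2ak2.

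The difference of responses, OVA minus WT, was tested in these 107 genes, against 0.341% of all genes tested called, 0.0773% as higher and 0.264% as lower. A single gene passed, Gabarapl1, of the autophagy machinery (0.26, SE 0.053, adjusted p = 0.0424). Its means were 122 ± 2.75 CPM in treated OVA and 80.1 ± 1.14 CPM in untreated OVA, against 106 ± 2.05 CPM in treated WT and 83.2 ± 1.68 CPM in untreated WT. The call was lost in 8 of the 10 fits that left out 1 library (adjusted p = 0.0942 to 0.241), all but those without WT IFN-γ replicate 3 (0.0240) and OVA IFN-γ replicate 3 (0.0339). Atf5 was at 0.14 (SE 0.060). Slc1a5, a glutamine transporter gene, was at 0.23 (SE 0.049) and missed the threshold (adjusted p = 0.0520), but passed with DESeq2 (0.0249), with no filter (0.0111), with a stricter filter (0.0299), without TMM factors (0.0277) and without WT IFN-γ replicate 3 (0.0468). The value for Nupr1 was 0.61 (SE 0.16, adjusted p = 0.161), and it passed with no filter (0.0145) and without WT untreated replicate 2 (0.81, adjusted p = 0.0384), and was at 0.36 without WT untreated replicate 1 (adjusted p = 0.611). Between the 10 genes, Ddit3, Trib3 and Chac1 have the largest values of this difference, as their choice implies, and the next largest were Atf3 (0.32), Vldlr (0.27), Ddit4 (0.16) and Asns (0.13).

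The genes nearest in profile to the mean standardised log2 levels of Ddit3, Trib3 and Chac1 over the 10 libraries were Napb, Adck5, Rbm45, Pold4 and Tmem150a, out of 10348 genes with a symbol and at least 5 CPM on average. Their Pearson correlations with that profile ran from 0.905 to 0.915, a description that rests on groups that share their treatment and line. Rbm45, which encodes an RNA-binding protein, had means of 42.8 CPM in treated OVA and 33.8 CPM in untreated OVA, against 37.3 CPM in treated WT and 36.0 CPM in untreated WT. Ddit3 and Trib3 themselves had correlations of 0.903 and 0.786 with the profile and Chac1 only 0.226, so that the mean profile is mostly that of the first pair.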

How the data were processed

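The labels describe poly-A selected bulk RNA libraries. They state neither strand nor separate cultures, so the p-values cover only the spread among these libraries, which may be technical. The authors deposited whole-number read counts for each Ensembl gene. HISAT2 2.0.5, featureCounts 1.6.0 and GRCm39 are named, per the submitters' processing notes; for the annotation release and shared reads, the setting is not given in the sources used here. All 10 libraries were fitted together as 4 group means in edgeR 4.0.16 (R 4.3.3), with TMM factors, the filterByExpr filter and two-sided quasi-likelihood tests, adjusted by Benjamini-Hochberg over 15526 genes at a threshold of 0.05. SE is the log2 difference divided by the square root of F. Alternatives were DESeq2 1.42.0, limma-voom 3.58.1, other filters, a replicate block, fits of only the groups compared, and each library left out; scaling without TMM was added after seeing the data. The 10 genes and the lists were chosen with earlier results of these data known. Named genes were the 10, 8 set regulators, up to 4 called genes of at least 5 CPM per list and comparison (a part is given), listed genes called for the difference of responses, and the 5 nearest profiles (log2 CPM, prior count 2); Mars1 was named for its overlap, and Gdf15 and Fgf21 as untested.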

Additional observations from a re-analysis of the deposited data

Results flagged for a closer look

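Gabarapl1 was called for a difference of the IFN-γ responses between the lines (0.26 log2 units, OVA minus WT, SE 0.053, edgeR adjusted p = 0.0424). Its response was 0.61 in OVA (SE 0.037) and 0.35 in WT (SE 0.038), with every treated library above every untreated one. Within a line, treated and untreated libraries did not overlap for 65.6% of all genes tested in OVA and 62% in WT. The call was lost in 8 of the 10 fits that left out 1 library (adjusted p = 0.0942 to 0.241). No other gene of the 7 stress lists was called in the fit of all 10 libraries, while Nupr1 and Slc1a5 passed in some alternatives (adjusted p = 0.0384 without WT untreated replicate 2 and 0.0468 without WT IFN-γ replicate 3).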

How the results depend on the processing

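No result changed direction in any alternative where it was called. For all genes, the DESeq2 Wald test called 552 between untreated lines (859 in edgeR), 1454 between treated lines (2229), 1957 over both conditions (2985) and 103 for the difference of responses (53). The difference of responses had 284 calls with no filter and 165 with a replicate block; the block moved no count of the 10 genes by over 1.5 times, but with it Slc1a5 for the difference of responses (adjusted p = 0.0237), Asns untreated between lines (0.0286) and Vldlr over both conditions (0.0392) passed. Leaving out 1 library gave 350 to 1012 calls between untreated lines, 1431 to 2408 between treated lines and 21 to 107 for the difference of responses. With 1 library left out, 4 to 5 of the 7 genes tested were called for each line's response and 2 to 3 of the 7 for either line difference, and 8 of the 10 for the mean response and 4 to 5 of the 10 over both conditions. The count between untreated lines fell to 350 to 378 without any 1 of the 4 untreated libraries, that between treated lines to 1431 without WT IFN-γ replicate 2 and 1462 without OVA IFN-γ replicate 3, and that for the difference of responses to 21 without WT untreated replicate 1 and 22 or 23 without either untreated OVA library; it was 107 without WT IFN-γ replicate 3. Such fits hold fewer samples; otherwise the cause was not tested. Same-numbered libraries deviated together (r over 0.1) in 3 of 13 pairs, and differently numbered ones in 4 of 24. In groups of 2 libraries the deviations mirror each other, so this check cannot decide on pairing. The numbers were not taken as pairs in the main fit. Scaling without TMM factors moved the median of all genes by at most 0.03 (log2). Depth limits Vldlr most.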
